A study of Mus musculus with 92 samples.

Results

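The RNA exosome core genes are the 10 mouse genes Exosc1 to Exosc10, chosen by name, of 56953 gene identifiers in the deposited tables. They were followed in 26 of the 92 samples of a study on the transcription factor GABPA, and the other 66 samples, from other assays, were not analysed here. The cells were mouse embryonic stem cells (mESCs) of the B6 line, with genotypes given as GabpadTAG/dTAG, Gabpb1dTAG/dTAG and Gabpb1/b2dTAG/dTAG and called here the GABPA, GABPB1 and GABPB1/GABPB2 lines. A dTAG degron is a tag that the small molecule dTAG-13 links to a ubiquitin ligase, so that the tagged protein is degraded, and both the dTAG-13 and the DMSO cells of a line carry the tagged alleles. RNA-seq of polyadenylated RNA compared dTAG-13 (500 nM) with DMSO at 12 h in the GABPA, GABPB1 and GABPB1/GABPB2 lines, in 6 groups of 2 libraries. SLAM-seq, in which 4-thiouridine (500 µM) in new RNA appears as T-to-C conversions in 3′-end reads, compared them in the GABPA line after 1, 2, 4 and 12 h, in 7 groups of 2 libraries. One DMSO group, treated for 2 h, served both 2 h and 4 h of dTAG-13, and how long cells were labelled is not given in the labels. All cells grew in serum with LIF, PD0325901 and CHIR99021, and nor is it given whether a line was 1 clone. The design text calls the libraries biological duplicates.

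The RNA exosome is the main 3′-to-5′ RNA-degrading complex of eukaryotic cells. It trims ribosomal and small nucleolar RNA precursors, removes promoter upstream and enhancer transcripts in the nucleus, and takes part in mRNA turnover in the cytoplasm. Its core is a barrel: EXOSC4, EXOSC5, EXOSC6, EXOSC7, EXOSC8 and EXOSC9 form a ring of 6 proteins related to the bacterial phosphorolytic RNases, and EXOSC1, EXOSC2 and EXOSC3 form a cap of 3 RNA-binding proteins on top of it. In mammals the barrel itself has lost catalytic activity, and RNA is threaded through it to the nuclease DIS3, or DIS3L in the cytoplasm, while EXOSC10, a second nuclease, sits on the cap side in the nucleus. GABPA is the ETS-family subunit of the GABP factor that contacts DNA, through a motif with the core GGAA, and GABPB1 and GABPB2 are its partner subunits.

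RNA-seq libraries held 16.0 to 32.1 M expected counts and SLAM-seq libraries 11.5 to 30.7 M reads in gene intervals, of which 0.94 to 4.25 M (5.06% to 14.12%) were converted. The degron removes protein and not mRNA, so the targeted transcripts do not check the labels. With dTAG-13 at 12 h, Gabpa mRNA rose in RNA-seq in the GABPA line (log2 fold change 0.50), the GABPB1 line (0.38) and the GABPB1/GABPB2 line (0.60). In SLAM-seq of the GABPA line at 12 h, Gabpa had no call in converted reads (0.12). It fell in all reads (-0.62), which depend on the scaling as described below. Gabpb1 rose in RNA-seq of the GABPB1 line (0.74) and the GABPB1/GABPB2 line (0.92), and Gabpb2 rose in the GABPB1/GABPB2 line (0.37). The 6 stem cell markers on the list (Pou5f1, Nanog, Sox2, Klf4, Esrrb and Zfp42) summed to 2586 to 3250 TPM, a unit of level per transcript length scaled to the library, over the 12 RNA-seq libraries. The 6 fibroblast markers on the list summed to 4.61 to 8.9 TPM, with Col3a1 at 0 in at least 11 libraries. The 6 markers of differentiating cells on the list summed to 5.43 to 22.7 TPM, and the 20.2 to 21.3 TPM of the dTAG-13 libraries and 21.8 to 22.7 TPM of the DMSO libraries of the GABPB1/GABPB2 line were the highest. In these bulk samples, fewer cells of a type and less RNA per cell cannot be told apart.

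Tests used edgeR's quasi-likelihood test over all genes of an assay, with Benjamini-Hochberg adjusted p-values, and a gene is said to have fallen or risen where the adjusted p was under 0.05. Each log2 fold change is dTAG-13 over DMSO and is followed by its standard error (SE). All 10 genes passed the filter on low counts in each assay, Exosc6 in RNA-seq only through the DMSO libraries of the GABPA line, so its presence in that test says nothing of its change.

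In DMSO cells of the GABPA line, Exosc5 had the highest mean level of the 10 genes, at 158 ± 10.6 TPM (SD, n = 2), followed by Exosc7 at 126 ± 5.93 TPM and Exosc2 at 115 ± 4.75 TPM. Exosc8 (76.7 TPM) and Exosc3 (75.1 TPM) overlapped in their libraries, as did Exosc10 (70.5 TPM) and Exosc9 (67.4 TPM). Exosc1 (49.9 TPM), Exosc4 (43.7 TPM) and Exosc6 (23.2 TPM) closed the order without overlap. Exosc5 was also highest in DMSO cells of the GABPB1 line (132 TPM) and the GABPB1/GABPB2 line (131 TPM). Leaving Exosc6 aside, the lowest of the genes was Exosc3 in each of the 6 dTAG-13 libraries and Exosc4 in each of the 6 DMSO libraries.

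**Figure D1:**
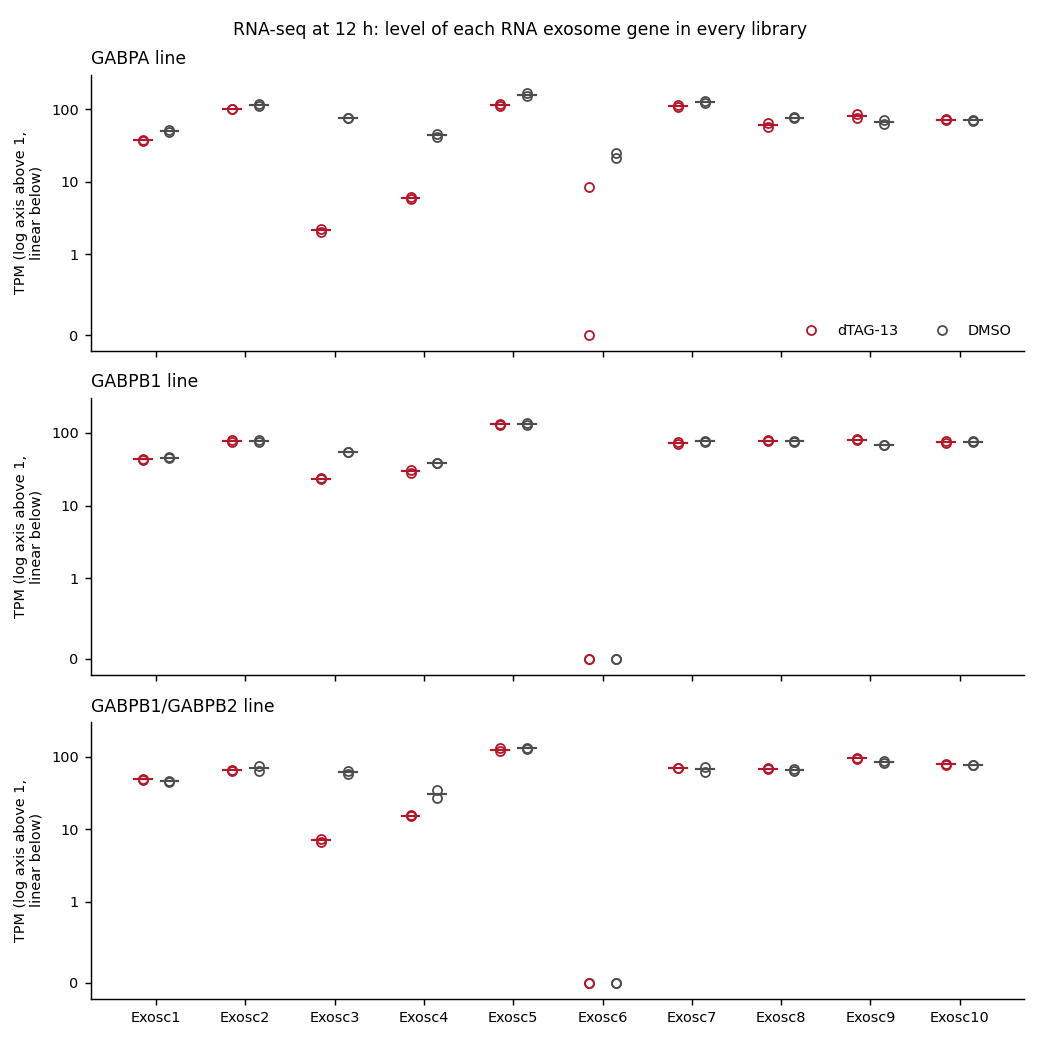
RNA-seq level in TPM (y axis, logarithmic above 1 and linear below) of Exosc1 to Exosc10 (x axis) in each library of the GABPA, GABPB1 and GABPB1/GABPB2 lines (panels), with dTAG-13 libraries in red to the left and DMSO libraries in grey to the right. Points are libraries and short lines are means of 2 libraries, with none drawn for Exosc6. Exosc3 lies at 2.06 and 2.27 TPM with dTAG-13 against 74.6 and 75.5 TPM with DMSO in the GABPA line, and Exosc6 lies at 0 in both GABPB lines.

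Of the cap genes, Exosc3 fell in all 3 lines, whereas Exosc1 fell in the GABPA line only at this threshold and Exosc2 passed the test in none. EXOSC3 (Rrp40 in yeast) is the cap subunit that bridges EXOSC9 and EXOSC5, and mutations in its human gene cause pontocerebellar hypoplasia. In the GABPA line Exosc3 had 2.27 and 2.06 TPM with dTAG-13 and 75.5 and 74.6 TPM with DMSO. In the GABPB1 line it had 23.3 and 23.65 TPM with dTAG-13 and 54.65 and 54.8 TPM with DMSO, and in the GABPB1/GABPB2 line 7.4 and 6.69 TPM with dTAG-13 and 63.2 and 58.2 TPM with DMSO. Every dTAG-13 library lay below every DMSO library of its line, and in the order GABPA, GABPB1/GABPB2, GABPB1 the dTAG-13 libraries did not overlap either. The log2 fold change was -5.09 ± 0.13 in the GABPA line (adjusted p = 2.92e-14), -3.12 ± 0.11 in the GABPB1/GABPB2 line (2.15e-11) and -1.25 ± 0.09 in the GABPB1 line (1.85e-07), so the fitted level was 2.94%, 11.5% and 41.9% of that with DMSO. Ranked by log2 fold change among 16396 genes tested, Exosc3 was number 23 from the lowest in the GABPA line, 45 in the GABPB1/GABPB2 line and 186 in the GABPB1 line.

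In RNA-seq the other cap genes moved little. EXOSC1 (Csl4 in yeast) carries an S1 RNA-binding domain, and its gene had 37.9 and 36.2 TPM with dTAG-13 and 48.0 and 51.85 TPM with DMSO in the GABPA line, a fall of 0.30 ± 0.08 on the log2 scale (adjusted p = 0.00457). That call was lost without DMSO library 2 (0.0572), and in the GABPB1 and GABPB1/GABPB2 lines Exosc1 had log2 fold changes of -0.07 and 0.05 (adjusted p = 0.712 and 0.749). Exosc2, whose product (Rrp4 in yeast) bridges EXOSC4 and EXOSC7, had 100.8 and 100.7 TPM with dTAG-13 and 118.6 and 112 TPM with DMSO in the GABPA line, a log2 fold change of -0.17 ± 0.07 (adjusted p = 0.0673). With library totals in place of TMM factors it passed (-0.20, 0.0399), as it did in a fit of the 4 libraries alone (-0.21, 0.0374). Exosc3 thus made up 1.61% and 1.48% of the summed TPM of the 3 cap genes with dTAG-13 in the GABPA line, against 31.2% and 31.3% with DMSO. In the GABPB1/GABPB2 line it made up 6.01% and 5.65% with dTAG-13 and 34.7% and 34.4% with DMSO, and in the GABPB1 line 15.9% and 16.7% with dTAG-13 and 31.1% and 30.6% with DMSO.

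Of the ring genes, Exosc4 fell in all 3 lines. EXOSC4 (Rrp41 in yeast) pairs with EXOSC9 in the ring and belongs to the branch that carries the phosphorolytic site in archaeal exosomes. In the GABPA line Exosc4 had 6.13 and 5.78 TPM with dTAG-13 and 41.7 and 45.7 TPM with DMSO. In the GABPB1/GABPB2 line it had 15.2 and 15.7 TPM with dTAG-13 and 35.25 and 26.65 TPM with DMSO, and in the GABPB1 line 28.5 and 30.8 TPM with dTAG-13 and 38.6 and 38.2 TPM with DMSO. The groups did not overlap in any line, and the DMSO libraries of the GABPB1/GABPB2 line were the most spread (SD 6.08 TPM). The log2 fold changes were -2.85 ± 0.13 in the GABPA line (adjusted p = 2.18e-11, 13.8% of DMSO), -1.02 ± 0.12 in the GABPB1/GABPB2 line (1.33e-05, 49.3%) and -0.41 ± 0.10 in the GABPB1 line (0.0236, 75.4%). The call in the GABPB1 line was lost when any 1 of its 4 libraries was left out (adjusted p = 0.0899 to 0.31). Exosc4 made up 1.67% and 1.49% of the summed TPM of the ring genes with dTAG-13 in the GABPA line, against 8.44% and 9.22% with DMSO.

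In RNA-seq the other ring genes had smaller changes, in the GABPA line only at this threshold. Exosc5, whose product (Rrp46 in yeast) pairs with EXOSC8, had 111 and 119 TPM with dTAG-13 and 151 and 166 TPM with DMSO in the GABPA line, and fell by 0.43 ± 0.08 on the log2 scale (adjusted p = 0.000259). Exosc8 (Rrp43 in yeast) had 56.4 and 64.35 TPM with dTAG-13 and 78.8 and 74.5 TPM with DMSO, and fell by 0.32 ± 0.08 (0.00291). The call of Exosc8 was lost without dTAG-13 library 1 (0.0511). Exosc9 (Rrp45 in yeast) was the only core gene that rose, with 76.05 and 84.6 TPM with dTAG-13 and 71.5 and 63.3 TPM with DMSO and a log2 fold change of 0.28 ± 0.08 (0.0057). That call was lost without DMSO library 2 (0.109) or dTAG-13 library 2 (0.0862). In the GABPB1 line Exosc9 had 82.5 and 79.9 TPM with dTAG-13 and 69.1 and 69.1 TPM with DMSO (0.20 ± 0.07, 0.131), which passed in a fit of those 4 libraries alone (0.21, 0.00261). In the GABPB1/GABPB2 line it had 95.8 and 93.6 TPM with dTAG-13 and 82.97 and 87.5 TPM with DMSO (0.14 ± 0.07, 0.243), so its dTAG-13 libraries lay above its DMSO libraries in every line, though it was called only in the GABPA line.

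Exosc7, whose product (Rrp42 in yeast) pairs with EXOSC6, had 108 and 114 TPM with dTAG-13 and 130.2 and 122 TPM with DMSO in the GABPA line, which did not pass the test (-0.15 ± 0.08, adjusted p = 0.152). In the GABPB1 and GABPB1/GABPB2 lines Exosc5, Exosc7 and Exosc8 had log2 fold changes between -0.09 and 0.05, with none called. Exosc6 (Mtr3 in yeast) had 8.51 and 0 TPM with dTAG-13 and 21.4 and 25.0 TPM with DMSO in the GABPA line, and 0 TPM in all 8 libraries of the GABPB1 and GABPB1/GABPB2 lines. Its interval lies wholly inside that of Aars on the same strand, and Aars, which encodes alanyl-tRNA synthetase, held 15469 and 15942 expected counts with dTAG-13 and 14870 and 19063 with DMSO in the GABPA line. Reads there can be assigned to either gene. The edgeR call for Exosc6 (-2.45 ± 0.70, adjusted p = 0.0114) is therefore uncertain, DESeq2 did not make it (0.744), and in the GABPB1 and GABPB1/GABPB2 lines no fold change can be given.

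EXOSC10 (Rrp6 in yeast) is the nuclease that sits on the complex in the nucleus. Exosc10 had 74.1 and 70.0 TPM with dTAG-13 and 69.5 and 71.5 TPM with DMSO in the GABPA line, with overlapping libraries. Its log2 fold changes were 0.05 ± 0.06 in the GABPA line (adjusted p = 0.487), -0.05 ± 0.06 in the GABPB1 line (0.68) and 0.04 ± 0.06 in the GABPB1/GABPB2 line (0.738).

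Counted together in the GABPA line, 6 of the 10 genes fell and 1 rose, where 21.9% of all genes tested fell and 24.5% rose. The 6 include the uncertain Exosc6, which DESeq2 did not call, so DESeq2 had 5 falls and 1 rise. Among the 9509 genes whose mean log2 CPM (reads scaled to the library's total) was 3 or more, 29.5% fell and 29.7% rose. The median log2 fold change of the 10 genes, with the uncertain Exosc6 included, was -0.31, against 0.06 over all genes tested. In the GABPB1 line 2 fell and none rose, where 5.46% of all genes fell and 1.28% rose, and at an unadjusted p under 0.05 edgeR had 2 falls and 1 rise (Exosc9), while DESeq2 called 2 falls and 0 rises. In the GABPB1/GABPB2 line 2 fell and none rose, where 9.26% of all genes fell and 3.53% rose, with the same counts at an unadjusted p under 0.05 and by DESeq2. The medians of the 10 genes in the GABPB1 and GABPB1/GABPB2 lines were -0.05 and 0.01, and both include Exosc6, which had no counts there. The falls in these lines were those of Exosc3 and Exosc4.

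**Figure D2:**
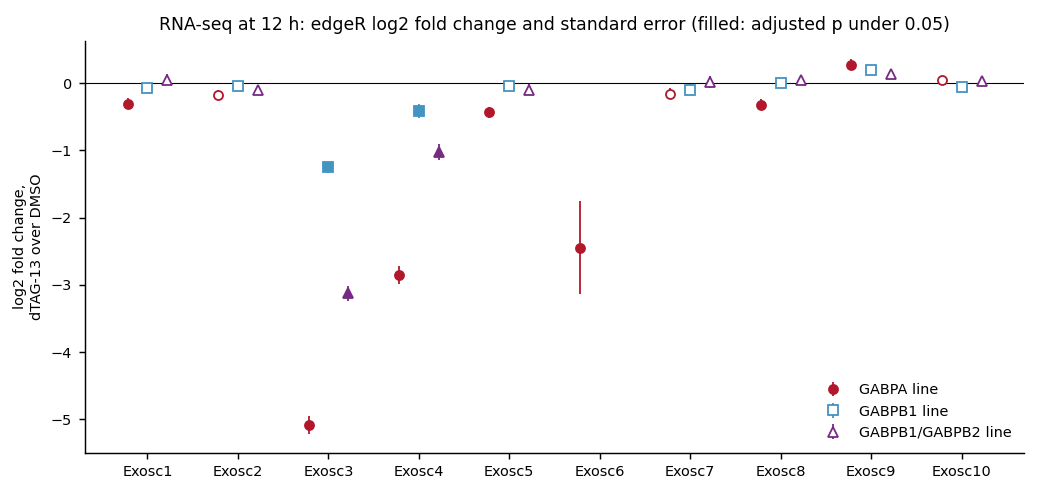
Log2 fold change of dTAG-13 over DMSO from edgeR (y axis, bars are SE) for Exosc1 to Exosc10 (x axis) in RNA-seq of the GABPA line (red circles), the GABPB1 line (blue squares) and the GABPB1/GABPB2 line (purple triangles), with filled symbols at an adjusted p under 0.05. Exosc3 lies at -5.09, -1.25 and -3.12 in those lines and Exosc4 at -2.85, -0.41 and -1.02, while the other genes lie near 0, apart from the uncertain Exosc6, which has no value in the GABPB lines.

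The sizes of the response differed between lines for Exosc3 and Exosc4. Taken as the GABPA minus the GABPB1 line, the response differed by -3.83 ± 0.17 for Exosc3 (adjusted p = 1.07e-10) and -2.45 ± 0.17 for Exosc4 (1.48e-08). Taken as the GABPA minus the GABPB1/GABPB2 line, it differed by -1.96 ± 0.21 for Exosc3 (3.87e-06) and -1.83 ± 0.18 for Exosc4 (1.92e-06). Between the GABPB lines, taken as GABPB1/GABPB2 minus GABPB1, it differed by -1.87 ± 0.15 for Exosc3 (2.34e-06) and -0.61 ± 0.16 for Exosc4, which did not pass (0.101). The value for Exosc4 passed with no filter on low counts (-0.60, 0.00388) and without DMSO library 2 of the GABPB1/GABPB2 line (-0.82, 0.00092). The lines differ in genotype and were each compared with their own DMSO cells, and how completely each protein was removed is not measured in these libraries. In DMSO cells Gabpa had 20.1 and 20.5 TPM in the GABPA line and 57.9 and 58.3 TPM in the GABPB1 line. In those of the GABPB1/GABPB2 line it had 58.9 and 63.9 TPM. Whether that bears on the responses was not tested.

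Smaller differences in the same direction were found for Exosc5, Exosc8 and Exosc1. Exosc5 differed by -0.39 ± 0.11 from the GABPB1 line (adjusted p = 0.0153) and by -0.34 ± 0.11 from the GABPB1/GABPB2 line (0.0435). Exosc8 differed by -0.32 ± 0.11 (0.04) and -0.37 ± 0.11 (0.0247), and Exosc1 by -0.36 ± 0.11 from the GABPB1/GABPB2 line only (0.0322). None of these calls held throughout: without dTAG-13 library 1 of the GABPA line the adjusted p was 0.0623 and 0.149 for Exosc5, 0.176 and 0.12 for Exosc8, and 0.0818 for Exosc1, and leaving out single libraries of the GABPB lines ended 3 of them (0.0507 for Exosc8, 0.0624 for Exosc1 and 0.12 for Exosc5). With all libraries kept, Exosc1 was not called by DESeq2 (0.0651), with no filter on low counts (0.0999), with a minimum mean log2 CPM of 3 (0.0529) or in the 8 libraries of the comparison alone (0.0529). The minimum of 3 also ended the call of Exosc5 against the GABPB1/GABPB2 line (0.0727) and of Exosc8 against the GABPB1 line (0.053), and Exosc8 against the GABPB1 line had 0.0633 with no filter. Of the 10 genes, 4 had a lower response in the GABPA line than in the GABPB1 line, where 13.3% of all genes had a lower and 12.5% a higher one. Against the GABPB1/GABPB2 line it was 5, where the shares of all genes were 10.7% and 10.1%. Between the GABPB lines it was 1, Exosc3, where the shares were 0.927% and 0.0854%. No core gene had a higher response in these 3 differences, by edgeR at an adjusted or unadjusted p under 0.05 or by DESeq2.

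The promoter of Exosc3 is shown because this gene changed most in RNA-seq of every line. Beside it are those of the other cap genes and of Exosc10, which was not called in RNA-seq of any line. Sequences are those of RefSeq on GRCm38.p6, a build other than the mm39 of the deposited counts, and reach from 250 bases before to 50 after each annotated start. Of the 10 genes, 8 had such a window in the table used, and Exosc4 and Exosc9 are named only. Capitals mark each CCGGAAG, an ETS-type motif, or its reverse complement CTTCCGG. The whole Exosc3 window of 300 bases is chr4:45320567-45320866, minus strand, and the stretches of 100 bases, 75 before and 25 after the start, are chr19:41933290-41933389 (minus) for Exosc1, chr2:31670640-31670739 (plus) for Exosc2 and chr4:148558638-148558737 (plus) for the second of the starts listed for Exosc10.
Exosc3: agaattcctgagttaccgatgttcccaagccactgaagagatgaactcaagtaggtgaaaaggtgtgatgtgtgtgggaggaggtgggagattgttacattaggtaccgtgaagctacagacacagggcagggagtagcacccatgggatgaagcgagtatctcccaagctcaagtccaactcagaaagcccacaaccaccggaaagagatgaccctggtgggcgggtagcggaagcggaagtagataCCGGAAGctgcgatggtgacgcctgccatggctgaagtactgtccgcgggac
Exosc1: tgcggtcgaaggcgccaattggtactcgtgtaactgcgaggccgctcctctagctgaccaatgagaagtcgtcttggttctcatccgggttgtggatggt
Exosc2: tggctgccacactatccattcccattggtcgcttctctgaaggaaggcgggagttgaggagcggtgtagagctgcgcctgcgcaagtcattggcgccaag
Exosc10: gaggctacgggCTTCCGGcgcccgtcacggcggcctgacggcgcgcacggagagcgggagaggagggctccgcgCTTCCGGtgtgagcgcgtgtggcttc

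The Exosc3 window held 1 CCGGAAG, which began 2 bases before the start. Of the 8 core genes with a window, only Exosc10 also held the motif, with 2 matches in the reverse direction 64 bases and 1 base before its second start. Over all 32851 promoter windows, 8.86% held at least 1 on either strand. The shorter CGGAAG, searched after the Exosc3 window had been read and contained in CCGGAAG, occurred 3 times in the Exosc3 window, 20, 14 and 1 bases before the start. It also occurred 2 times in the window of Exosc6 and in that of the second Exosc10 start, and 1 time in those of Exosc5 and Exosc8. The windows of Exosc1, Exosc2 and Exosc7 did not hold it. On either strand, 16.9% of all windows held at least 1 and 1.03% held 3 or more. Exosc10, which held the motif at its second start only, was not called in RNA-seq of any line. The window of its first start held neither CCGGAAG nor CGGAAG, and which start is used in these cells was not examined. In all reads of SLAM-seq of the GABPA line at 12 h, Exosc10 fell. A match in a window is a description of letters, not a binding site.

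On mm39, Exosc3 spans chr4:45316613-45342732 (minus strand) in the gene intervals of the deposited SLAM-seq tables, and its 5′ end there reaches 632 bases into Dcaf10, which runs the other way. In RefSeq the starts of Exosc3 and Dcaf10 lie 21485 bases apart, so the divergent arrangement depends on the annotation. Dcaf10, which encodes a substrate receptor of CUL4 ubiquitin ligases, had 2.48 and 2.82 TPM with dTAG-13 and 2.84 and 2.36 TPM with DMSO in the GABPA line, with no call (0.06 ± 0.12, adjusted p = 0.729). Its RefSeq window held a CCGGAAG 15 bases before the start. Exosc4 (chr15:76211597-76214877, plus strand) overlaps the 5′ end of Oplah, which encodes 5-oxoprolinase, by 619 bases, or 18.9% of the Exosc4 interval. Oplah rose in RNA-seq of the GABPA line, with 15.3 and 13.2 TPM with dTAG-13 and 4.88 and 5.22 TPM with DMSO (1.52 ± 0.11, adjusted p = 7.15e-09), the direction opposite to that of Exosc4. Oplah also rose in the GABPB1/GABPB2 line (0.50, 0.0109), but in SLAM-seq of the GABPA line at 12 h its converted reads had no call (0.11, 0.799).

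Exosc8 (chr3:54636099-54642814, minus strand) overlaps the 3′ end of Supt20, which encodes a subunit of the SAGA complex, by 89 bases. Supt20 had 19.0 and 19.4 TPM with dTAG-13 and 53.7 and 50.2 TPM with DMSO in the GABPA line, and fell by 1.46 ± 0.07 on the log2 scale (adjusted p = 6.37e-11). Exosc9 (chr3:36606755-36619876, plus strand) overlaps Ccna2, the cyclin A2 gene on the other strand, by 863 bases, and Ccna2 fell by 0.45 (8.66e-05) where Exosc9 rose. Opposite-strand overlaps were larger for Exosc2, of whose interval Gm13427 covers 46.9%, and for Exosc5, of which Tmem91 covers 18.3%. In RNA-seq of the GABPA line Gm13427 had 0.29 and 0.27 TPM with dTAG-13 and 0.98 and 0.70 TPM with DMSO, and Tmem91 had 1.03 and 0.89 TPM with dTAG-13 and 0.53 and 1.26 TPM with DMSO, and both were below the filter there. In converted reads at 12 h Gm13427 rose (1.18, adjusted p = 0.000533). Whether reads were counted by strand is not stated, so reads in these overlaps cannot be told apart, and the small changes of Exosc2, Exosc5, Exosc8 and Exosc9 carry that limit. The values of Exosc3 and Exosc4 carry it too, for their overlaps with Dcaf10 and Oplah. Alg5, a glycosylation gene divergent from Exosc8 with starts 146 bases apart, rose (0.41, 0.00414) where Exosc8 fell. The genes divergent from Exosc1, Exosc5 and Exosc7, namely Zdhhc16 (0.02), Bckdha (0.08) and Zdhhc3 (-0.03), had no call in RNA-seq of the GABPA line (adjusted p = 0.889, 0.396 and 0.781).

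In SLAM-seq of the GABPA line, the converted reads of Exosc3 and Exosc4 were already lower after 1 h of dTAG-13, and those of the other 8 genes were not called at 1, 2 or 4 h. Exosc3 had 11 and 17 converted reads with dTAG-13 at 1 h and 53 and 64 with DMSO, which were 10.0 and 17.9 CPM against 57.1 and 57.1 CPM after TMM scaling. At 2 h it had 25 and 20 converted reads and at 4 h 15 and 20, against 108 and 149 in the DMSO group shared by both times. The dTAG-13 libraries lay below the DMSO libraries at each time. The log2 fold changes of Exosc3 were -2.05 ± 0.31 at 1 h (adjusted p = 0.000351), -2.19 ± 0.27 at 2 h (1.38e-05) and -2.20 ± 0.28 at 4 h (1.64e-05).

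Exosc4 had 19 and 26 converted reads with dTAG-13 at 1 h and 72 and 69 with DMSO. It had 56 and 23 at 2 h and 10 and 31 at 4 h, against 171 and 234 in the shared DMSO group. Its dTAG-13 libraries were far apart at 2 h and 4 h, yet stayed below the DMSO libraries. The log2 fold changes of Exosc4 were -1.65 ± 0.34 at 1 h (adjusted p = 0.00802), -2.05 ± 0.28 at 2 h (6.91e-05) and -2.65 ± 0.32 at 4 h (7.39e-06). The call at 1 h was lost without DMSO library 1 (0.107) or dTAG-13 library 1 (0.243). Between 4 h and 2 h of dTAG-13, where no control enters, neither Exosc3 (-0.01 ± 0.34) nor Exosc4 (-0.60 ± 0.37) was called (both adjusted p = 1). In that comparison 0% of all genes fell and 0% rose by edgeR, 322 and 335 genes had an unadjusted p under 0.05 in the 2 directions but none of the core genes, and DESeq2 called none.

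At 1 h, 2 of the 10 genes fell in converted reads, where 1.72% of all 15887 genes tested fell, and none rose, where 0.0567% did. At 2 h it was 2 falls where 3.21% of all genes fell and 0 rises where 0.145% rose, and at 4 h 2 falls where 3.91% fell and 0 rises where 0.113% rose. DESeq2 made the same counts of core genes at these times, and at an unadjusted p under 0.05 there was 1 rise at 1 h, Exosc9 (0.46 ± 0.20, adjusted p = 0.394), and none at 2 h and 4 h. The comparisons at 2 h and 4 h share their DMSO libraries and are not independent. The other 8 genes had 35 to 280 converted reads per library at 1, 2 and 4 h, and their log2 fold changes had SE of 0.15 to 0.26.

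**Figure D3:**
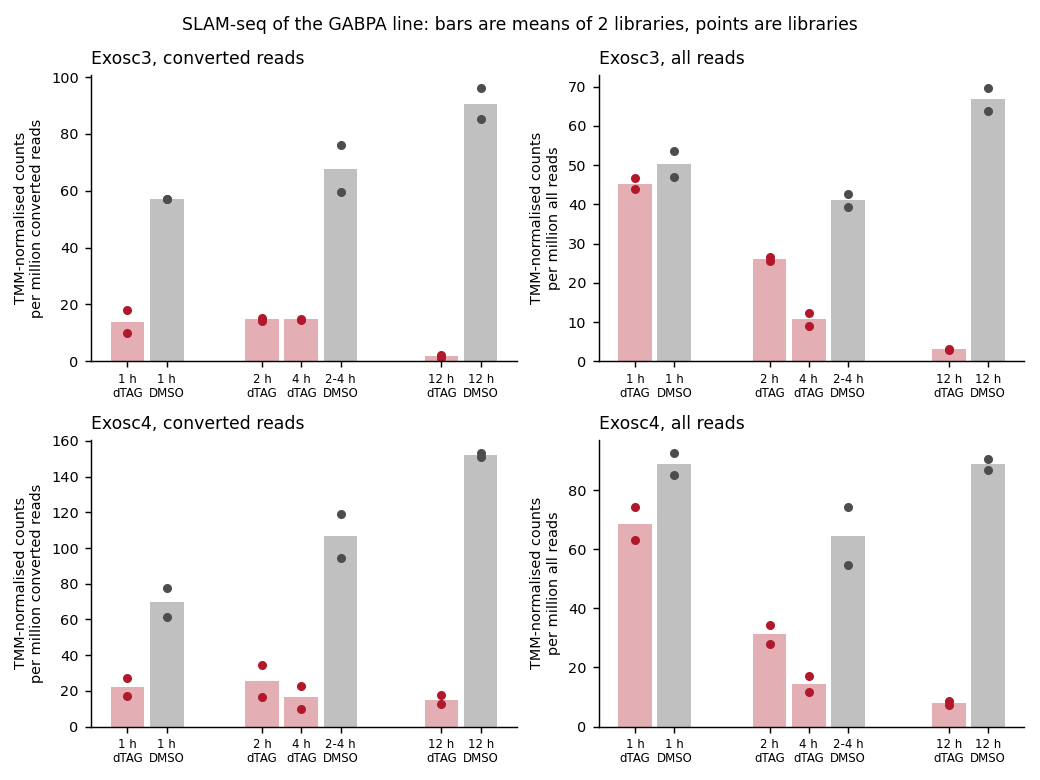
SLAM-seq of the GABPA line: TMM-normalised CPM (y axes, starting at 0) of Exosc3 (top) and Exosc4 (bottom), for converted reads (left) and all reads (right). Bars are means of 2 libraries and points are libraries, with dTAG-13 in red and DMSO in grey. Converted reads of Exosc3 were 10.0 and 17.9 CPM with dTAG-13 for 1 h against 57.1 and 57.1 CPM with DMSO, a time at which all reads lie at 43.9 and 46.7 CPM against 53.5 and 47.0 CPM.

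At 12 h, Exosc3 had 5 and 4 converted reads with dTAG-13 and 208 and 189 with DMSO, a log2 fold change of -5.82 ± 0.34 (adjusted p = 7.79e-12), which ranked number 2 from the lowest of 15887 genes tested. Exosc4 had 74 and 22 converted reads with dTAG-13 and 331 and 335 with DMSO, which after scaling were 17.8 and 12.5 CPM against 153 and 151 CPM (-3.26 ± 0.28, 3.28e-09). The 12 h response was lower than the 1 h response for Exosc3 by -3.76 ± 0.53 (9.49e-05) and for Exosc4 by -1.61 ± 0.45 (0.0298). The difference for Exosc4 was lost in 5 of the 8 cases with 1 library left out. Those were 2 of the 10 genes, where 4.7% of all genes had a lower and 2.14% a higher response at 12 h. No core gene had a higher response, by edgeR at an adjusted or unadjusted p under 0.05 or by DESeq2. Of all reads, 5.06% to 6.08% were converted in the 1 h libraries and 12.05% to 14.12% in the 12 h libraries. Whether that affects the difference between the responses was not tested.

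Exosc1, Exosc5 and Exosc7 also fell in converted reads at 12 h. Exosc7 had 88.6 and 77.7 CPM with dTAG-13 and 189 and 150.2 CPM with DMSO (-1.02 ± 0.23, adjusted p = 0.00169). Exosc5 had 67.6 and 56.7 CPM with dTAG-13 and 111 and 101.5 CPM with DMSO (-0.76 ± 0.18, 0.00286), and Exosc1 had 134 and 139.5 CPM with dTAG-13 and 215 and 209.8 CPM with DMSO (-0.64 ± 0.15, 0.00209). Without DMSO library 1, Exosc5 and Exosc7 were not called (0.0578 and 0.0527), nor was Exosc5 without dTAG-13 library 2 (0.0513). Exosc8 (-0.53 ± 0.21, 0.0581), Exosc2 (-0.42 ± 0.18, 0.07), Exosc10 (-0.33 ± 0.22, 0.258) and Exosc9 (-0.17 ± 0.17, 0.47) did not pass, and Exosc6 had a value above 0 (0.29 ± 0.19, 0.26). In all, 5 of the 10 genes fell, where 18.3% of all genes fell, and none rose, where 12.3% did, with 7 falls and 0 rises at an unadjusted p under 0.05 and 5 falls and 0 rises by DESeq2. Exosc8 passed with no filter on low counts (0.0478), without DMSO library 2 (0.0375) and in the 4 libraries of the comparison alone (0.0308). The median of the 10 genes was -0.58, against 0.04 over all genes. When the converted reads were scaled by all reads in place of their own totals, the median over all genes shifted by -0.34 and 8 of the 10 genes fell, with Exosc2, Exosc8 and Exosc10 added. Over all genes that scaling turned the calls to 4499 falls and 617 rises, against 2905 and 1952.

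All reads of the same libraries, converted or not, were called lower from 2 h for Exosc4 and from 4 h for Exosc3. For Exosc3 they were 885 and 871 with dTAG-13 and 889 and 878 with DMSO at 1 h (-0.15 ± 0.14, adjusted p = 1). At 2 h they were 450 and 381 (-0.65 ± 0.15, 0.107) and at 4 h 110 and 180 (-1.94 ± 0.16, 7.93e-06), against 687 and 748 in the shared DMSO group. At 12 h they were 102 and 53 with dTAG-13 and 1026 and 980 with DMSO (-4.44 ± 0.17, 1.38e-10). Exosc4 had 1274 and 1384 reads with dTAG-13 and 1534 and 1593 with DMSO at 1 h (-0.37 ± 0.18, 1). It had 607 and 397 at 2 h (-1.05 ± 0.19, 0.0299) and 142 and 252 at 4 h (-2.16 ± 0.20, 2.57e-05), against 958 and 1305 in the shared DMSO group, and 295 and 119 with dTAG-13 and 1335 and 1333 with DMSO at 12 h (-3.48 ± 0.21, 4.42e-09). At 1 h the converted reads of both genes were thus called lower while all reads were not, though the difference between the 2 kinds of read was not tested.

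In all reads, 0 of the 10 genes fell at 1 h, where 0.00371% of all 26957 genes fell, and 0 rose, where 0% did, with 0 core genes at an unadjusted p under 0.05 by edgeR and 0 called by DESeq2. For all genes, 399 fell and 274 rose at 1 h at an unadjusted p under 0.05, and DESeq2 called 3 falls and 0 rises. At 2 h 1 core gene fell, where 0.211% did, and none rose, where 0.00371% did. The Exosc4 call at 2 h was lost in a fit of the 4 libraries alone (0.468) and without any 1 of 3 libraries (0.137 to 0.577). At 4 h 2 fell, where 2.1% did, and none rose, where 0.0334% did. No core gene rose at 2 h or 4 h at an unadjusted p under 0.05 or by DESeq2.

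At 12 h in all reads, 9 of the 10 genes fell, where 27.6% of all genes fell, and none rose, where 29.8% did, which holds at an unadjusted p under 0.05 and by DESeq2 too. Exosc3 and Exosc4 apart, the log2 fold changes of those that fell ran between -0.91 ± 0.16 for Exosc9 and -1.69 ± 0.31 for Exosc7, and Exosc6 had 0.01 ± 0.15 (adjusted p = 0.964). Under this TMM scaling, of 11928 genes whose mean log2 CPM was 3 or more, 48.9% fell, 15% rose, and the median was -0.39, but that median was -0.02 with library totals and 0.05 when only genes with a mean log2 CPM of 3 or more were fitted. With library totals in place of TMM factors the median over all genes was 0.37 higher, the calls over all genes were 4865 falls and 11520 rises against 7449 and 8032, and Exosc6 was called as risen (0.38, 0.0413). In the fit of well-expressed genes alone there were 3695 falls and 3984 rises, and Exosc6 was again called as risen (0.44, 0.03). Reads given to Exosc6 can also be those of Aars, inside whose interval it lies. The other 9 core genes fell under both, with Exosc1 at -0.57 and Exosc9 at -0.54 with library totals. In RNA-seq at the same time Exosc9 rose, and Exosc2, Exosc7 and Exosc10 had no call, so for these genes the assays differ in direction or call, and what that difference comes from was not tested.

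**Figure D4:**
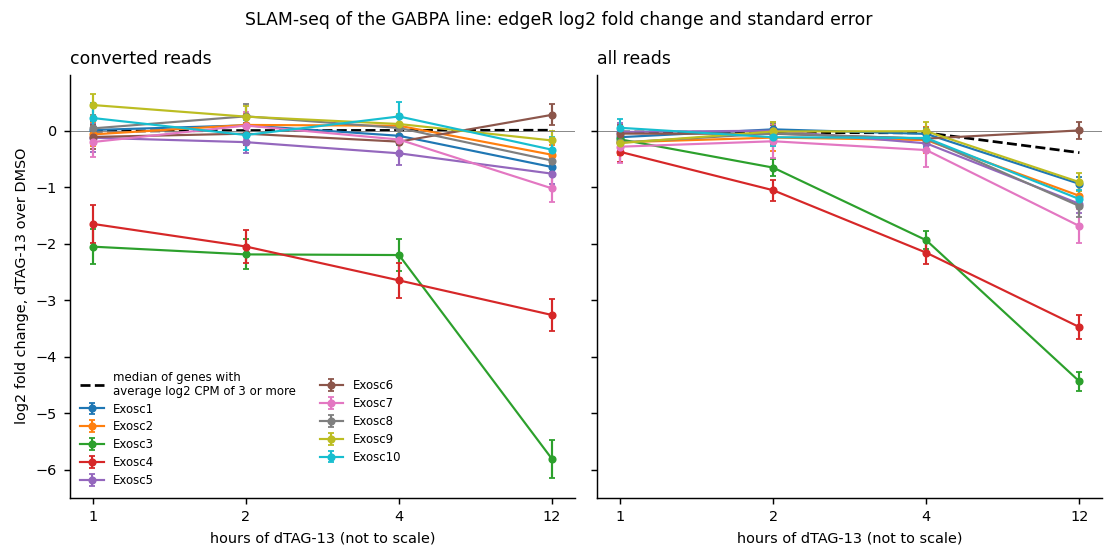
Log2 fold change of dTAG-13 over DMSO in SLAM-seq of the GABPA line (y axis, bars are SE) at 1, 2, 4 and 12 h (x axis, not to scale) for each core gene in converted reads (left) and all reads (right), with the median of genes whose mean log2 CPM was 3 or more as a dashed line. Exosc3 and Exosc4 stand at -2.05 and -1.65 in converted reads at 1 h, and at -0.15 and -0.37 in all reads. With TMM scaling the dashed line lies at -0.39 in all reads at 12 h, when 9 of the 10 genes lie below it.

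The share of a gene's reads that were converted relates the new to the total RNA. For Exosc3 it was 1.24% and 1.95% with dTAG-13 at 1 h (95% Wilson intervals 0.695% to 2.21% and 1.22% to 3.10%) and 5.96% and 7.29% with DMSO (4.59% to 7.72% and 5.75% to 9.20%). For Exosc4 it was 1.49% and 1.88% with dTAG-13 and 4.69% and 4.33% with DMSO. The intervals cover counting error only, and reads without molecular identifiers are not independent molecules. At 12 h the share for Exosc3 was 4.90% and 7.55% with dTAG-13, on 102 and 53 reads, and 20.3% and 19.3% with DMSO. For Exosc4 at 12 h the groups met, with 25.1% and 18.5% with dTAG-13 and 24.8% and 25.1% with DMSO.

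In DMSO cells the core genes differed among themselves in this share. At 1 h it was 11.8% to 15.6% for Exosc6 and 8.3% to 8.72% for Exosc1, against 1.26% to 1.51% for Exosc5 and 1.79% to 1.82% for Exosc9. At 12 h it was 37.8% to 39.7% for Exosc1 and 33.5% to 36.6% for Exosc6. For Exosc5 it was then 7.26% to 7.28% and for Exosc9 6.77% to 6.82%, so the same genes stood near both ends. Exosc8 overlapped the low end, with 1.64% to 2.56% at 1 h and 7.12% to 9.0% at 12 h. Reads given to Exosc6 can also be those of Aars, inside whose interval it lies. The share also depends on the number of T bases under the reads, which differs between genes.

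The nucleases and cofactors around the core were read from a list of 30 genes. Of these, 5 fell and 7 rose in RNA-seq of the GABPA line, beside the 21.9% and 24.5% of all genes given above, and the list's median was 0.02. DIS3, the main nuclease of the complex, had no change that passed, with Dis3 at 29.3 and 30.5 TPM with dTAG-13 and 31.9 and 31.4 TPM with DMSO (-0.06 ± 0.07, adjusted p = 0.49). Its cytoplasmic relative Dis3l had 11.4 and 11.5 TPM with dTAG-13 and 7.28 and 7.67 TPM with DMSO and rose (0.64 ± 0.09, 1.41e-05), as it did in the GABPB1/GABPB2 line (0.35, 0.0175). Mtrex, the helicase that feeds the nuclear exosome, had no call (0.17, 0.0648).

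Skic2, the helicase of the SKI complex that feeds the cytoplasmic exosome, had 17.4 and 14.55 TPM with dTAG-13 and 32.6 and 35.02 TPM with DMSO in the GABPA line. It fell in all 3 lines, with log2 fold changes of -1.06 ± 0.09 in the GABPA line (adjusted p = 2.77e-08), -0.57 in the GABPB1 line (0.000305) and -0.62 in the GABPB1/GABPB2 line (9.42e-05). Zfc3h1, a scaffold that links MTREX to polyadenylated nuclear RNA, had 2.73 and 2.72 TPM with dTAG-13 and 5.76 and 4.98 TPM with DMSO and fell by 0.95 ± 0.10 (4.45e-07), and also in the GABPB1 line (-0.27, 0.0385). Its SLAM-seq reads at 12 h had no call, converted (0.30, 0.272) or all (0.04, 0.849). The other falls were those of Dxo, a decapping nuclease (-0.66, 0.000143), Xrn2, the nuclear 5′-to-3′ nuclease (-0.58, 3.75e-06), and Ncbp1, a subunit of the nuclear cap-binding complex (-0.44, 1.54e-05).

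After Dis3l, the largest rises on the list in RNA-seq of the GABPA line were those of Xrn1, the cytoplasmic 5′-to-3′ nuclease (0.53, adjusted p = 0.000313), Skic3, the scaffold of the SKI complex (0.48, 0.000229), and Nop53, a nucleolar adaptor of MTREX (0.40, 0.000978). Skic2 and Skic3, of 1 complex, thus moved in opposite directions in that assay and line, while Skic8, its remaining core subunit, had no call (0.00, 0.974). In the GABPB1 line 2 of the 30 genes fell and 0 rose, where 5.46% of all genes fell and 1.28% rose. There edgeR had 6 falls and 2 rises at an unadjusted p under 0.05, while DESeq2 called 1 fall and 0 rises. In the GABPB1/GABPB2 line 2 fell and 1 rose, where 9.26% and 3.53% did. In converted reads no gene of the list was called in either direction at 1, 2 or 4 h by edgeR or DESeq2, and at an unadjusted p under 0.05 there was 1 fall at 1 h, 1 rise at 2 h and 1 fall at 4 h. At 12 h 5 of the 30 fell and 3 rose, where 18.3% and 12.3% of all genes did, and DESeq2 called 3 falls and 1 rise. In all reads at 12 h, 15 of the 30 fell and 1 rose, where 27.6% and 29.8% of all genes did, and DESeq2 called 16 falls and 1 rise. Of genes whose mean log2 CPM was 3 or more, 48.9% fell and 15% rose under the same TMM scaling. The median of the list there was -0.40, beside -0.39 for those genes. With library totals the median of those genes was -0.02, so the list's counts in all reads rest on the scaling. The balance of falls and rises thus differed from that in RNA-seq, for the list and for the well-expressed genes alike. In RNA-seq of the GABPA line 29.5% of well-expressed genes fell and 29.7% rose. What that difference comes from was not tested.

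**Figure D5:**
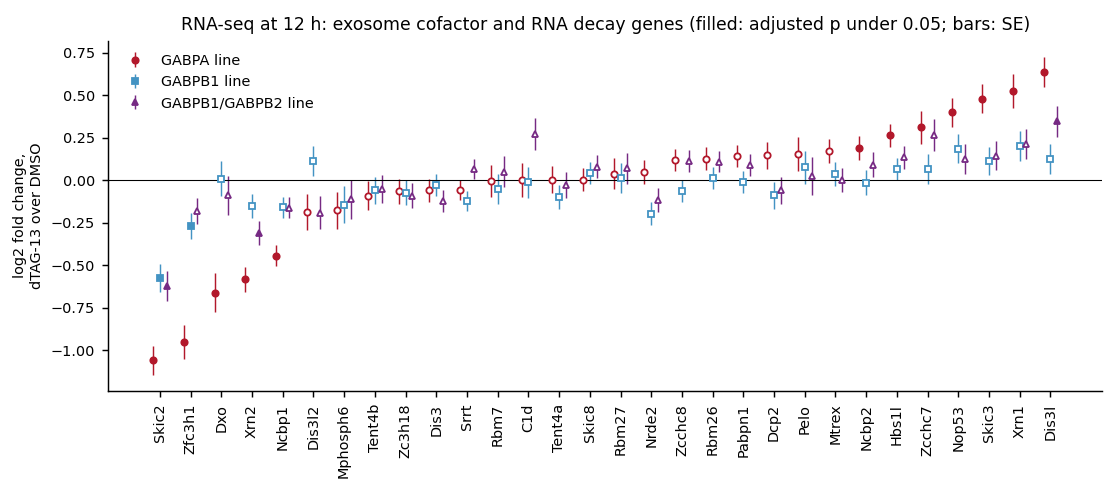
Log2 fold change of dTAG-13 over DMSO from edgeR (y axis, bars are SE) for the 30 listed exosome cofactor and RNA decay genes (x axis, in the order of their value in the GABPA line) in RNA-seq of the GABPA line (red circles), GABPB1 line (blue squares) and GABPB1/GABPB2 line (purple triangles), with filled symbols at an adjusted p under 0.05. Skic2 at -1.06 and Dis3l at 0.64 mark the ends in the GABPA line.

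The genes most like Exosc3 were those with the smallest Euclidean distance to its log2 fold changes over 7 comparisons with DMSO, 3 in RNA-seq and 4 in converted reads, among 8673 genes. They were Ublcp1 (distance 1.41), Kti12 (1.74), Prkab1 (1.75), Mogs (1.86) and Ngrn (2.00), and Exosc4 was number 52 (4.13). Ublcp1, which encodes a proteasome phosphatase, had log2 fold changes of -4.46 in the GABPA line, -1.04 in the GABPB1 line and -2.18 in the GABPB1/GABPB2 line. Kti12, whose yeast counterpart regulates the Elongator complex, had -4.74, -0.87 and -3.11 in these lines. In converted reads at 1 h Ublcp1 had -1.76 and Kti12 -2.47, beside -2.05 for Exosc3. The RefSeq windows of Kti12, Prkab1, Mogs and Ngrn held a CCGGAAG and that of Ublcp1 held none, so 4 of the 5 had the motif, against 8.86% of all windows, which include genes not expressed here. Of the 30 listed cofactor and decay genes, 22 had a window and 8 of these held the motif. The 5 genes were chosen for falling as Exosc3 did, and the 7 comparisons share libraries, so the distances are descriptions only.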

How the data were processed

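The 10 genes, the lists and the tests were chosen with earlier results of these data known. Samples were grouped by the labels. For RNA-seq, the deposited tables hold RSEM expected counts and TPM per gene. Per the submitters' processing notes, the tools included Trim Galore 0.6.7, STAR 2.7.11a and RSEM 1.3.1, and the build was mm39. The deposited SLAM-seq tables give, per GENCODE gene interval, one count for all its reads and another for converted (T-to-C) reads, made with slamdunk 0.4.3 per the file headers. The sources used here do not give how strands and overlapping genes were handled. Conversions from sequencing error were not subtracted.

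Expected counts were rounded to whole numbers. RNA-seq, converted reads and all reads were each fitted once with edgeR 4.0.16 (R 4.3.3): a mean per group, TMM factors, and genes kept by filterByExpr (minimum count 10, minimum total 15), leaving 16396, 15887 and 26957 genes. Of 16 comparisons, 5 were differences between responses or times. The quasi-likelihood test was used with Benjamini-Hochberg adjustment over every gene in the fit, called at 0.05, and the SE is the size of the log2 fold change over the root of the F statistic. The steps were tested on simulated data with known changes. With 2 libraries per group, p-values rest on the spread between duplicates, estimated over all groups of an assay together and partly shared across genes. They do not rest on the compared groups alone. No pair of replicates differed by counting error alone.

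All 10 genes are described. Genes next to them could be named where their interval overlapped one or their 5′ ends lay within 1000 bases on opposite strands, and where RNA-seq tested them. Tmem91 and Gm13427, which it did not test, were added after their overlaps were seen, and 2 predicted genes with small overlaps, Gm12585 and Gm13204, were not described. From the list of 30 cofactors, up to 6 called falls and 4 called rises of the largest size in RNA-seq of the GABPA line were named, and Dis3, Mtrex and Skic8 were added after their values were seen. The 5 genes most like Exosc3 were taken among genes whose mean log2 CPM was 3 or more in both assays. Alternatives were DESeq2 1.42.0, DESeq2 size factors, library totals, other filters, the libraries of a comparison alone, a replicate block, leaving out each library, and scaling converted reads by all reads.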

Additional observations from a re-analysis of the deposited data

Results flagged for a closer look

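Responses of 5 core genes differed between lines or times by a test of the difference itself (edgeR, adjusted p under 0.05). Taken as the GABPA minus the GABPB1 line in RNA-seq, the values were -3.83 for Exosc3, -2.45 for Exosc4, -0.39 for Exosc5 and -0.32 for Exosc8 (log2). Taken as the GABPA minus the GABPB1/GABPB2 line, they were -1.96 for Exosc3, -1.83 for Exosc4, -0.36 for Exosc1, -0.34 for Exosc5 and -0.37 for Exosc8. For the GABPB1/GABPB2 line minus the GABPB1 line the value was -1.87 for Exosc3. For the 12 h response minus the 1 h response in converted reads of the GABPA line they were -3.76 for Exosc3 and -1.61 for Exosc4. The libraries of these times also differed in the share of reads converted, as given above. The calls of Exosc1, Exosc5 and Exosc8 were lost under some left-out libraries and other settings, as given with their values above.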

How the results depend on the processing

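Of 196 counts of called core genes under alternatives, 171 stayed within 1.5 times the reported count, and no call among 1951 values for single genes changed sign. Exosc3 kept its call in each RNA-seq and converted-read comparison with DMSO under every alternative run, with log2 fold changes of -5.15 to -5.02 for the GABPA line at 12 h and -2.50 to -1.65 in converted reads at 1 h. The calls of Exosc4 in the GABPB1 line, in converted reads at 1 h and in all reads at 2 h depended on single libraries, as given with their values. With 1 library left out, the number of core genes called was 4 to 7 in RNA-seq of the GABPA line (reported 7), 1 in each case in the GABPB1 line (2), 2 to 4 for the GABPA minus the GABPB1 response (4), 2 to 6 for the GABPA minus the GABPB1/GABPB2 response (5) and 1 to 2 for the GABPB1/GABPB2 minus the GABPB1 response (1). It was 1 to 2 in converted reads at 1 h (2), 3 to 6 at 12 h (5), 1 to 2 for the 12 h minus the 1 h response (2), and 0 to 1 in all reads at 2 h (1). In such fits a lone library was assumed to vary like the other groups. A mean log2 CPM of at least 3 gave 3 for the GABPA minus the GABPB1/GABPB2 response, no filter gave 2 for the GABPB1/GABPB2 minus the GABPB1 response, the libraries of the comparison alone gave 0 in all reads at 2 h, where the reported fit had 2 at an unadjusted p under 0.05 and DESeq2 called 1, and scaling by all reads gave 8 in converted reads at 12 h. Except where libraries or genes were left out by construction, the cause was not tested.

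Library totals in place of TMM factors gave 730 falls and 314 rises over all genes in RNA-seq of the GABPB1 line (reported 896 and 210), 2406 and 2843 in converted reads at 12 h (2905 and 1952) and 582 and 461 for the 12 h minus the 1 h response (747 and 340), and moved the medians of these last comparisons by 0.13 and 0.10. The labels do not say that a replicate number marks a shared culture. Same-numbered libraries of compared groups correlated in their deviations at -0.04 to 0.03 in RNA-seq at 0.00 to 0.29 in converted reads and at -0.05 to 0.40 in all reads, where 2 h and 4 h of dTAG-13 (0.36) and each of them with their DMSO group (0.40 and 0.30) had the highest values. A replicate block changed none of the 16 counts of core genes, with Exosc3 at -5.09 (adjusted p = 1.53e-13) and Exosc4 in the GABPB1 line at -0.41 (0.0306).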
